A study of Mus musculus with 8 samples.

Results

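The cytosolic ribosomal protein genes encode the proteins of the ribosome that translates nuclear mRNAs, and they are described here in mouse small intestinal organoids after irradiation. Members were genes with a symbol beginning with Rpl or Rps (Rpsa included) and a mean of at least 50 TPM over the 8 libraries, where TPM is a level scaled for gene length and library size. Genes that are pseudogenes by annotation or by name (-ps or Gm), the Rps6k kinases, Rps19bp1, Rps27l, Rpl7l1 and Rpl22l1 were left out. The rule found 79 genes among 55416 gene IDs, of which 32 encode small-subunit and 47 large-subunit proteins, and all 79 were among the 14063 genes tested. Organoids irradiated with 6 Gy of X-rays were compared with unirradiated control organoids, each at day 4 and at day 7, and each of the 4 groups had 2 libraries. All groups came from intestinal epithelial cells of C57BL/6 mice that were Tg/Tg for Rosa26-rtTA and Tg/Tg for Col1A1-TetO-OSKM, a reprogramming transgene of the doxycycline-inducible kind that the control organoids carried too. The labels do not say that the transgene was induced, from when the days were counted, or how many mice or cultures stood behind the libraries, so the p-values measure only the spread between these libraries. The members were thus chosen by name and by their mean TPM over all libraries, a level that took no account of irradiation or day.

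A ribosome holds a single copy of nearly every ribosomal protein, and the small subunit reads the mRNA while the large subunit joins amino acids. The mRNAs of ribosomal proteins, and of many translation factors, begin with a run of pyrimidines called the TOP tract (terminal oligopyrimidine), through which the kinase mTORC1 and the RNA-binding protein Larp1 control their translation and stability. In the intestine, ribosome production is high in the dividing cells of the crypt and lower in mature enterocytes.

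Start-site windows of 30 bases are shown for some of the members named below. They come from the RefSeq promoter table of build GRCm38.p6 and run 5′ to 3′ on the coding strand. Capitals mark the longest run of at least 5 C or T letters that begins with C within 10 bases of the annotated start. A marked run need not be a TOP tract, because it may begin away from the first base of the mRNA.
Rpl12, among the largest falls at day 4, chr2:32961697-32961726, plus strand: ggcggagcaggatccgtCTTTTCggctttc
Rps6, the substrate of S6 kinase, chr4:86857353-86857382, minus strand: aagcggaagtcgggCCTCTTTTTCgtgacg
Rps27, chr3:90213634-90213663, minus strand: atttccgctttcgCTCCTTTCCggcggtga
Rps27rt, the retrogene copy of Rps27, chr9:114982725-114982754, minus strand: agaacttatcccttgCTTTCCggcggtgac
Rpl5, among the largest falls, with no such run in the window, chr5:107900513-107900542, plus strand: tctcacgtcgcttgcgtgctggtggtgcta
Rpl36al, the smallest fall, with no such run either, chr12:69184053-69184082, minus strand: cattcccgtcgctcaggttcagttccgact
The table's longer entries for Rps27 and Rps27rt, which reach past these windows, shared an unbroken stretch of 38 bases that began at or next to the annotated start. The table held windows for 59 of the 79 members, and 35 of the 59 had such a run, against 34.4% of 27025 genes in the table. A comparison of these shares is void, because fewer than 80% of the members had a window.

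Libraries held between 7541764 and 16054269 expected counts. Epithelial markers were present in all libraries, while the summed level of 4 mesenchymal markers was at most 0.67 TPM, that of 3 endothelial markers at most 1.11 TPM with Cdh5 and Kdr at 0, and that of 4 immune markers at most 3.73 TPM. The members of a replicate pair differed more at day 4: in irradiated organoids of day 4, all 79 members were lower in replicate 2 than in replicate 1, with a median TPM ratio of 0.702, and in control organoids of day 4, 78 were higher in replicate 2, with a median ratio of 1.21. The same ratio was 1.04 in irradiated and 1.01 in control organoids of day 7. Only 1 of the 79 members had whole counts in all 8 libraries (within 0.001), against 7976 of the 14063 genes tested, so nearly all members shared reads with other annotated sequences and their counts are estimates.

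The members were among the most abundant transcripts. Their mean over the 8 libraries had a median of 1228 TPM, and 55 of them stood at 1000 TPM or more. Rpsa, also known as the laminin receptor, was highest at 3652 TPM, followed by Rps12 at 3587 TPM and Rpl7 at 3133 TPM. Rpl29 was lowest at 188 TPM, followed by the retrogene Rps27rt at 290 TPM and the paralog Rpl36al at 361 TPM. The highest level was 19.4 times the lowest, although the proteins are needed in near-equal numbers. No gene lay near the limit of 50 TPM: a limit of 20 or of 100 TPM chose the same 79 genes, and the genes that only the limit kept out were Rpl3l, at no more than 0.19 TPM, and Rpl10l and Rpl39l, which were listed at 0 in every library.

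At day 4, transcripts of ribosomal proteins took a smaller share of the RNA in irradiated organoids than in control organoids. The 79 members took 7.19% and 5.07% of all TPM in the irradiated libraries of day 4, against 10.8% and 13.0% in the control libraries of day 4. At day 7 the share was 12.2% and 12.6% in irradiated libraries, against 11.9% and 11.9% in control libraries. The irradiated libraries of day 4 thus lay below all 6 other libraries, which spanned 10.8% to 13.0%. TPM and counts give shares of the poly-A RNA of a library, so fewer cells of a type and less RNA per cell cannot be told apart.

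Mitochondrially encoded transcripts made up 29.1% and 37.5% of TPM in irradiated libraries of day 4, against 29.7% and 23.3% in control libraries of day 4, so the groups overlapped there, and the library with the lowest share of ribosomal protein transcripts had the highest mitochondrial share. With mitochondrial genes left out of the total, the members took 10.1% and 8.10% of TPM in irradiated libraries of day 4, against 15.4% and 17.0% in control libraries of day 4, and from 15.2% to 15.5% in the day 7 libraries. The small-subunit genes took 2.89% and 2.03% in irradiated libraries of day 4, against 4.39% and 5.33% in control libraries. The large-subunit genes took 4.30% and 3.04% in irradiated libraries, against 6.44% and 7.67% in control libraries. Genes of both subunits were lower in both irradiated libraries.

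**Figure D1:**
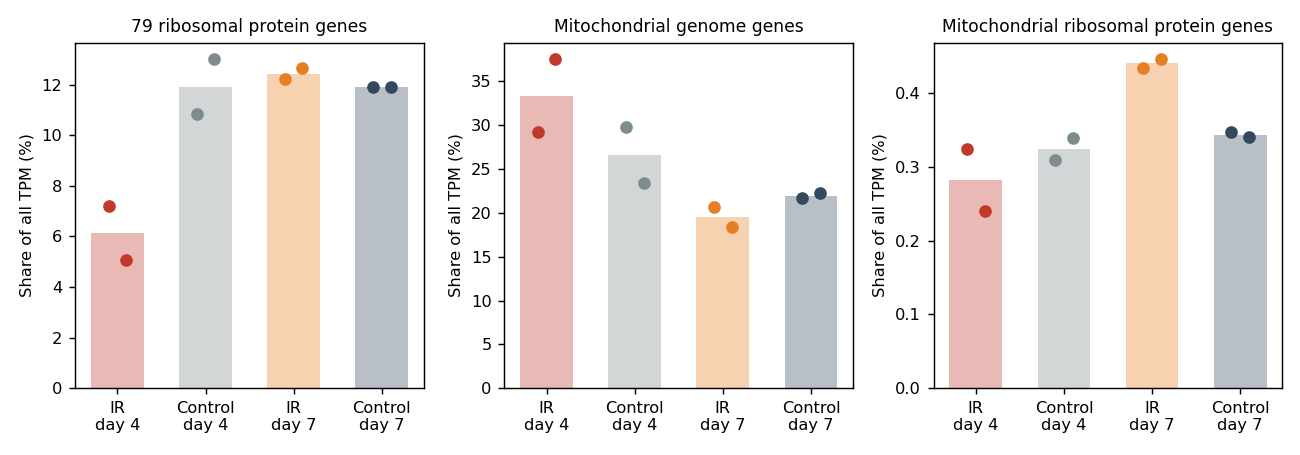
Share of all TPM (%) in each library (points) and its mean in each group (bars, 2 libraries each), for the 79 ribosomal protein genes, the genes of the mitochondrial genome and the nuclear genes of the mitochondrial ribosome. The members took 7.19% and 5.07% in irradiated organoids of day 4, below all other libraries, while the mitochondrial genome took its highest share, 37.5%, in 1 of those libraries.

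Gene by gene, the fall at day 4 covered the whole family. All 79 members were lower in irradiated organoids (edgeR quasi-likelihood test, Benjamini-Hochberg adjusted p under 0.05), where 16.5% of all genes tested were called lower and 36.5% were called in either direction. None was called higher, also at an unadjusted p under 0.05 and with DESeq2. The median log2 fold change of the members was -0.76, a level 0.590 times that of control organoids, with a range from -1.05 to -0.34, and the median of all genes tested was 0.00. The libraries of the 2 groups did not overlap in CPM (counts scaled by library size, with TMM factors) for any of the 79, against 31.8% of all genes that were lower without overlap. Among 877 other genes with at least 50 TPM that were no longer than the longest member, the median was 0.07, and 29.6% were called higher and 16.3% lower. With limma on log2(TPM + 1) the members had a median of -0.97, against -0.17 over all genes. In that fit 77 were called lower, where 12% of all genes were. With no filter on low values 49 were called lower, where 2.11% of all genes were.

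**Figure D2:**
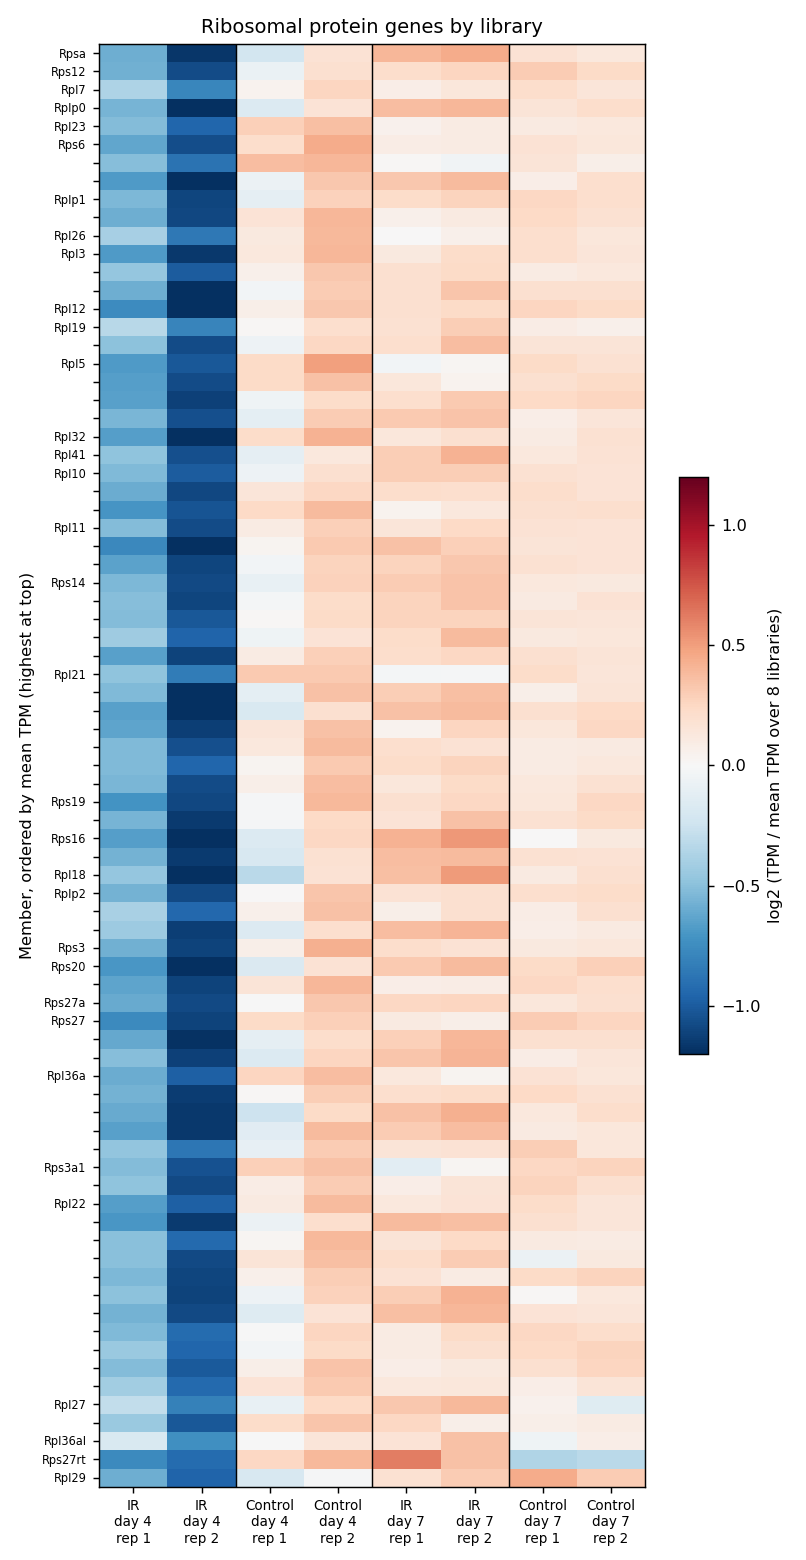
Each row is a member, ordered by its mean TPM with the highest at the top and labelled where the text names it, and each column a library; the colour gives log2 of its TPM over its mean in the 8 libraries. The 2 irradiated libraries of day 4 are below the mean in all rows, replicate 2 more so, and Rps27rt departs from the other rows in the day 7 libraries.

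The largest falls included proteins of both subunits. Rpl32, a large-subunit protein, had 978 and 662 TPM in irradiated organoids, against 1800 and 2067 TPM in control organoids of day 4, a log2 fold change of -1.05 ± 0.09 (SE, adjusted p = 2.91e-05). Rpl12, which lies at the base of the stalk where translation factors bind, had 1073 and 748 TPM in irradiated organoids, against 1904 and 2270 TPM in control organoids, a mean level 0.499 times as high by the edgeR fit (adjusted p = 4.13e-05). Rpl5, a carrier of ribosomal RNA to the large subunit that also binds the p53 inhibitor Mdm2, had 1101 and 870 TPM in irradiated organoids, against 2058 and 2467 TPM in control organoids (-0.98 ± 0.09). In each of these genes both irradiated libraries were far below both control libraries. Rps27, of the small subunit, fell by 0.98 on the log2 scale.

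The smallest falls were those of large-subunit genes. Rpl36al, a paralog of Rpl36a, had 318 and 217 TPM in irradiated organoids, against 359 and 399 TPM in control organoids of day 4, a log2 fold change of -0.34 ± 0.10 (adjusted p = 0.0188). Rpl27 had 402 and 282 TPM in irradiated organoids, against 464 and 582 TPM in control organoids (-0.43 ± 0.10), and Rpl19 fell by 0.46 on the log2 scale. The groups did not overlap in Rpl36al or Rpl27 either, but the lower control library lay close to the higher irradiated one. Rpl36al was not called without replicate 2 of the irradiated (adjusted p = 0.0654) or of the control organoids of day 4 (0.0633), and neither was Rpl18 (0.0616 and 0.116). The median was -0.79 for the 32 small-subunit genes and -0.73 for the 47 large-subunit genes, and the ranges overlapped.

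Members with known roles outside or at special places of the ribosome moved with the rest. Rpl11, which with Rpl5 binds Mdm2 when ribosome assembly fails, had 997 and 682 TPM in irradiated organoids, against 1537 and 1748 TPM in control organoids of day 4 (log2 fold change -0.77 ± 0.09). Rpl23, a further Mdm2 binder, changed by -0.85, and Rpl26, which binds the p53 mRNA, by -0.67. The stalk proteins Rplp0, Rplp1 and Rplp2, which recruit elongation factors, changed by -0.69, -0.70 and -0.79. Rps6, whose phosphorylation by S6 kinase is a common readout of mTORC1, had 1547 and 1136 TPM in irradiated organoids, against 2749 and 3227 TPM in control organoids (-0.96 ± 0.09). Its level in irradiated organoids was below both control libraries by a wide margin. Rps19 and Rps14, whose loss causes human anaemias, changed by -0.88 and -0.69.

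Rpl3, at the peptidyl transferase centre, changed by -0.95 on the log2 scale, and Rpl10, which completes the large subunit, by -0.61. Rps3, at the mRNA entry of the small subunit, changed by -0.84. Rpl22, an RNA-binding protein of the large subunit, changed by -0.89, and Rpl41, among the smallest proteins known, by -0.56. Rps27a, which is made as a fusion with ubiquitin, changed by -0.79, and Rpsa by -0.73. All of these changes passed the test. The same direction was seen in 2 genes outside the rule: Fau, a fusion of a ubiquitin-like protein with a small-subunit protein, changed by -0.49 (adjusted p = 0.00412), and Rack1, a scaffold on the small subunit, by -0.84 (0.0006).

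**Figure D3:**
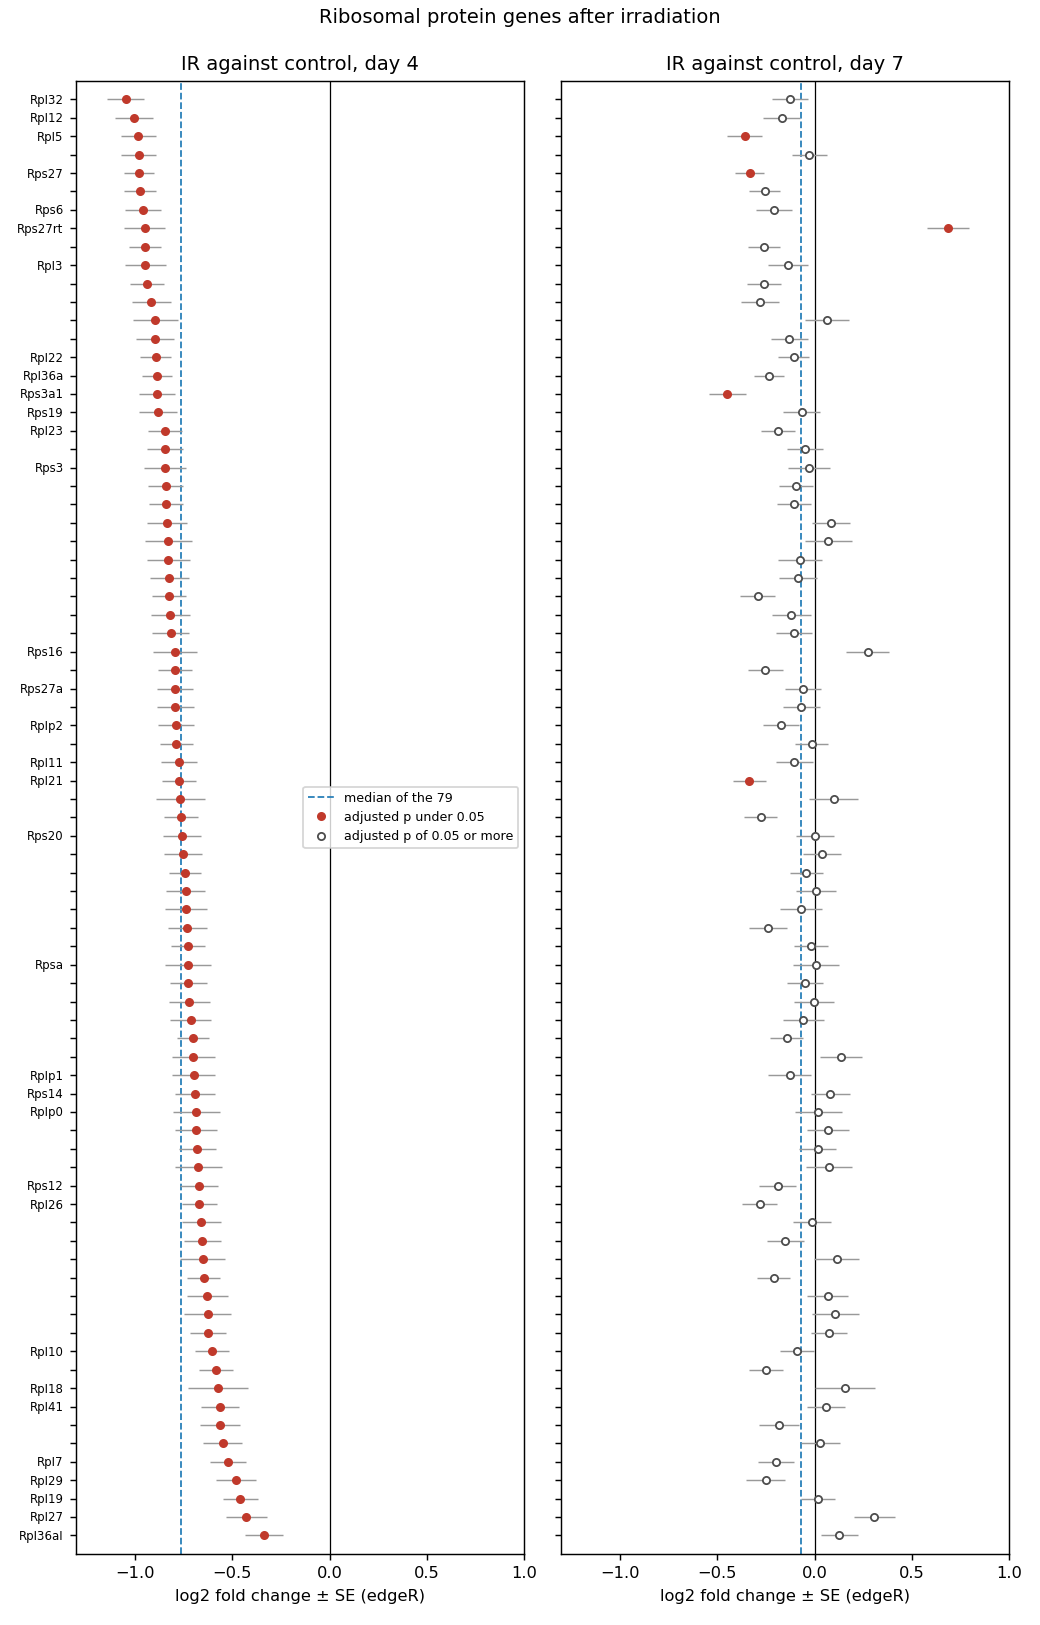
Log2 fold change of each member with its SE (edgeR), irradiated against control organoids, at day 4 (left) and day 7 (right), in the order of the day 4 values, with labels for members named in the text. All 79 points are filled (adjusted p under 0.05) and below 0 at day 4, with a median of -0.76, while at day 7 the median is -0.07 and 5 points are filled, Rps27rt alone on the higher side.

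At day 7 few members were called. In irradiated organoids 1 member was called higher, where 4.70% of all genes tested were, and 4 were called lower, where 3.95% of all genes were, so the share of members called (6.33%) was below that of all genes (8.65%). The median log2 fold change was -0.07, with 26 members above 0 and 53 below, and it was 0.06 with limma on log2(TPM + 1), against 0.12 over all genes. The 877 other genes of at least 50 TPM, no longer than the longest member, stood higher at day 7 by the edgeR fit. Their median was 0.18, and 16.9% were called higher and 1.25% lower. The libraries did not overlap for 44 members on the lower side (55.7% of members, against 32.6% of all genes) and for 16 on the higher side (20.3%, against 33.3%). In a fit of the day 7 libraries alone, where replicates lay close together, 7 members were called higher and 36 lower, where 18.8% of the 13041 genes in that fit were called higher and 17.5% lower. All 5 calls were lost without control replicate 1 or 2 or without irradiated replicate 1 of day 7, and those 4 on the lower side also without irradiated replicate 2.

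The 4 genes called lower at day 7 were Rps3a1, Rpl5, Rps27 and Rpl21. Rps3a1, at the mRNA exit of the small subunit, had 774 and 859 TPM in irradiated organoids, against 999 and 1011 TPM in control organoids of day 7, a log2 fold change of -0.45 ± 0.09 (adjusted p = 0.0179). Rpl5 had 1714 and 1789 TPM in irradiated organoids, against 2067 and 1994 TPM in control organoids (-0.36 ± 0.09, adjusted p = 0.0373). Rps27 had 1128 and 1098 TPM in irradiated organoids, against 1288 and 1251 TPM in control organoids (-0.33 ± 0.08, adjusted p = 0.0248). The groups did not overlap in these genes, and the log2 fold changes lay nearer to 0 than at day 4. Rpl21, a large-subunit protein, had 1288 and 1293 TPM in irradiated organoids, against 1523 and 1443 TPM in control organoids (-0.33 ± 0.09, adjusted p = 0.0396). Rps16 and Rpl27 stood highest relative to the member median after Rps27rt, with log2 fold changes of 0.27 and 0.31 that did not pass the test (adjusted p = 0.151 and 0.0958).

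Rps27rt, a copy of Rps27 made from its mRNA, was the exception. It had 443 and 370 TPM in irradiated organoids, against 226 and 232 TPM in control organoids of day 7, a log2 fold change of 0.69 ± 0.11 (adjusted p = 0.00557). At day 4 it had 171 and 153 TPM in irradiated organoids, against 345 and 380 TPM in control organoids (-0.95 ± 0.11, adjusted p = 0.000119). It was thus lower at day 4 and higher at day 7, with no overlap of libraries at either time. Both copies share sequence, and their counts are estimates of how shared reads divide. Rps27rt over Rps27 was 0.393 and 0.337 in irradiated libraries of day 7, against 0.175 and 0.185 in control libraries of day 7. Taken as a sum, Rps27 and Rps27rt had 1571 and 1468 TPM in irradiated organoids, against 1514 and 1483 TPM in control organoids of day 7, a ratio of means of 1.01, and of 0.442 at day 4. With the counts of each member summed with those of its named copies, Rps27 changed by -0.12 at day 7 (adjusted p = 0.374) and Rps3a1 by -0.27 (adjusted p = 0.103), and 2 members were called lower and 0 higher at day 7. The retrogene and its parent were thus called at day 7 when counted apart, and not when counted together.

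The effect of irradiation differed between the days for most members. The difference (the log2 fold change of irradiation at day 7 minus that at day 4) was above 0 for all 79 and passed the test for 69, where 4.60% of all genes tested were called in that direction. None was called below 0, also at an unadjusted p under 0.05 and with DESeq2, against 5.51% of all genes. The median difference was 0.70, and that of all genes was -0.04. Among the largest were those of Rps27rt at 1.63, Rps16 at 1.07 and Rpl32 at 0.92, and the smallest was that of Rpl29 at 0.23 (adjusted p = 0.329). The count was 9 with limma on log2(TPM + 0.1), where 1.46% of all genes were called in that direction. It was 6 with log2(TPM + 1), where 1.28% of all genes were. Without any single day 7 library fewer members were called, and fewer of all genes were called too. Over the fits without a single library the median difference lay between 0.62 and 0.81.

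A related comparison is the change with time in irradiated organoids alone, without the change in control organoids taken off. Between day 7 and day 4, 77 members were higher at day 7 in irradiated organoids, where 14.7% of all genes tested were called higher, and the median log2 fold change was 0.64. Rpl21 and Rpl26 were not called (0.24 and 0.26, adjusted p = 0.0514 and 0.0502). None was lower, also at an unadjusted p under 0.05 and with DESeq2, against 18.3% of all genes. Among the largest rises were those of Rps16 (1.00), Rps27rt (0.93), Rps20 (0.91) and Rpl18 (0.88). Rps16 had 1538 and 1651 TPM at day 7 against 732 and 495 TPM at day 4 in irradiated organoids, and no library of day 7 was as low as those of day 4.

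In control organoids 1 member differed between the days. Rps27rt was lower at day 7 (log2 fold change -0.71 ± 0.11, adjusted p = 0.00953), where 1.46% of all genes tested were called lower; the call was lost without control replicate 1 or 2 of day 7 (adjusted p = 0.145 and 0.144). None was called higher with edgeR, where 1.25% of all genes were, or with DESeq2. At an unadjusted p under 0.05 in the edgeR test, 1 member was higher and 10 were lower. The share of all genes at that threshold is not given here, so nothing is read from these counts. The median of the members was -0.07 in control organoids, with 23 members above 0 and 56 below. Of all genes tested, 7003 were above 0 and 7051 below. These time comparisons use the same libraries as the irradiation comparisons, so the 2 sets of values are not independent of each other: the irradiated organoids of day 4 enter the fall at day 4, the difference between the days and the rise with time alike.

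Paralogs that can take the place of a member behaved in different ways. Rps27l, a paralog of Rps27 that p53 is known to induce, had 237 and 213 TPM in irradiated organoids, against 140 and 141 TPM in control organoids of day 7, a log2 fold change of 0.54 ± 0.11 (adjusted p = 0.0173). At day 4 it had 221 and 147 TPM in irradiated organoids, against 148 and 183 TPM in control organoids, so the TPM overlapped, and the edgeR log2 fold change was 0.35 ± 0.11 (adjusted p = 0.0302, or 0.093 with DESeq2 and 0.678 with limma on log2(TPM + 1)). It was thus the only tested paralog called higher at day 4, while its ratio to Rps27 was 0.360 and 0.304 in irradiated libraries, against 0.121 and 0.144 in control libraries of day 4. The day 4 call of Rps27l was lost without replicate 1 of the irradiated (adjusted p = 0.168) or control organoids of day 4 (0.152) and without any single day 7 library (0.0557 to 0.0714), and its day 7 call without any single day 7 library (0.0681 to 0.155). Rpl22l1, the paralog of Rpl22, had 146 and 112 TPM in irradiated organoids, against 244 and 234 TPM in control organoids of day 4 (-0.66 ± 0.09, adjusted p = 0.000418), and fell alongside Rpl22. Rpl36al over Rpl36a was 0.492 and 0.436 in irradiated libraries, against 0.306 and 0.316 in control libraries of day 4, and the ratios did not overlap. Rpl7l1 did not pass the test at either day, nor did Rps19bp1, which encodes a protein that binds Rps19 and is no paralog. Rps4l, annotated as a processed pseudogene, stayed between 0.47 and 4.30 TPM.

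**Figure D4:**
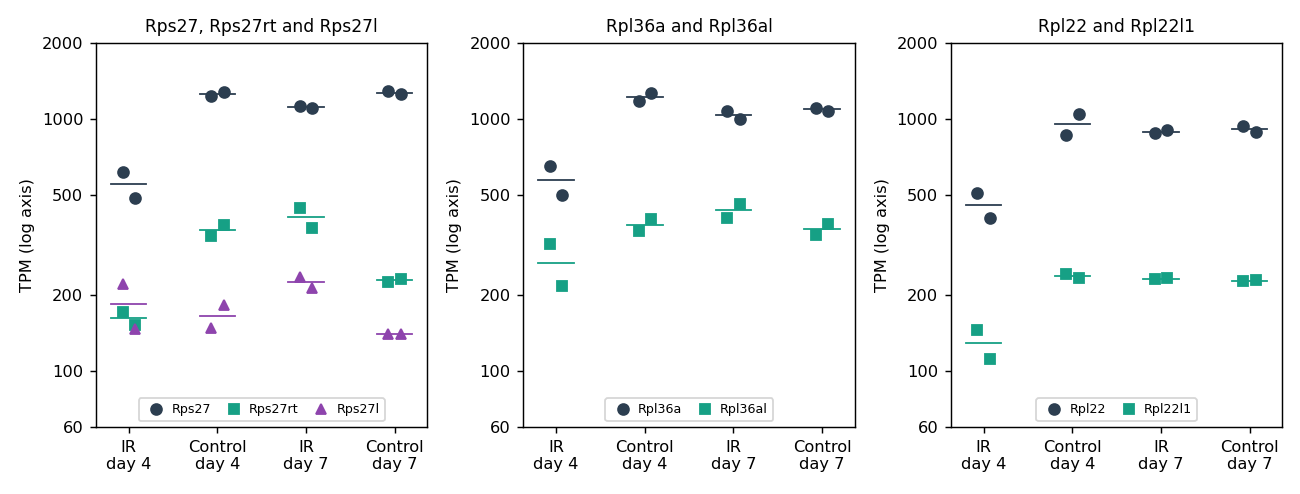
TPM (log axis) in each library (points) and group mean (lines) of Rps27 with its retrogene Rps27rt and paralog Rps27l, of Rpl36a with Rpl36al, and of Rpl22 with Rpl22l1. Rps27rt has 443 and 370 TPM in irradiated organoids of day 7 against 226 and 232 TPM in control organoids of day 7, whereas Rps27 has its lowest values, 614 and 485 TPM, in irradiated organoids of day 4.

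Other mRNAs known to carry a TOP tract, from a list without members of the rule that holds Fau and Rack1, also fell at day 4. Of its 26 genes, 21 were called lower and 0 higher in irradiated organoids (0 higher also at an unadjusted p under 0.05 and with DESeq2), where 16.5% of all genes were called lower and 36.5% in either direction, and the median was -0.48. The elongation factor subunit Eef1b2 had 1058 and 754 TPM in irradiated organoids, against 1700 and 1987 TPM in control organoids of day 4 (-0.83 ± 0.09, adjusted p = 8.73e-05). Naca, which guides nascent chains at the ribosome, changed by -0.68, the initiation factor Eif4b by -0.73 and the elongation factor subunit Eef1g by -0.65. At day 7 none of the 26 was called with edgeR or DESeq2. At an unadjusted p under 0.05 with edgeR, for which no share of all genes is given here, 1 was higher and 2 lower. The smallest p-values there were those of Naca, at -0.23 (adjusted p = 0.0954), and of Pabpc1, the poly-A binding protein, at -0.27 (0.112).

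Lists of translation factors share genes with the TOP list. Of 39 initiation factors, 2 were called higher and 11 lower at day 4, with a median of -0.12, where 16.5% of all genes were called lower and 36.5% in either direction. Of the 33 that are not on the TOP list, 2 were called higher and 6 lower, with a median of -0.06. Eif3e, which is on it, changed by -0.57 and Eif2s2, which is not, by -0.46, while Eif6, which keeps the large subunit from joining early, had 114 and 70.7 TPM in irradiated organoids, against 52.2 and 54.7 TPM in control organoids (0.85 ± 0.13, adjusted p = 0.000727). Of 15 elongation and termination factors, 1 was called higher and 7 lower, with a median of -0.25, and of the 9 that are not on the TOP list, 1 was called higher and 2 lower, with a median of -0.04. Eef1a1, a TOP mRNA whose protein carries tRNA to the ribosome, had 13399 and 9632 TPM in irradiated organoids, against 21752 and 22901 TPM in control organoids, and changed by -0.76 (adjusted p = 0.00138). Tpt1, also on the TOP list, changed by -0.59. At day 7, Eif6 at 0.67 (adjusted p = 0.0135) and Eif5a at 0.49 (0.0231) were the only called genes of these lists, both higher.

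Regulators of the mTORC1 pathway went in both directions. Of 27 genes around mTORC1, Larp1, the 4E-BP repressors and S6 kinases, 5 were called higher and 7 lower at day 4, not far from the 36.5% of all genes called in either direction and 16.5% called lower. Ddit4l, an inhibitor of mTORC1, had 8.31 and 3.55 TPM in irradiated organoids, against 0.36 and 0.69 TPM in control organoids of day 4 (3.31 ± 0.38, adjusted p = 0.000123). Eif4ebp1, the repressor of the cap-binding factor, changed by -1.05, Pdcd4, an inhibitor of the helicase Eif4a, by -0.69, and the kinase gene Rps6ka3 by -0.47. At day 7, Rps6ka3 changed by -0.33 (adjusted p = 0.0248) and Tsc1, a brake on mTORC1, by -0.43 (adjusted p = 0.0415); for Rps6ka3 the sign turned with limma on log2(TPM + 1), at 0.13.

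Genes that assemble the ribosome, and those of the mitochondrial ribosome, stayed nearer to all genes at day 4. Of 34 assembly factors, 3 were called higher and 8 lower, with a median of -0.07, where 16.5% of all genes were called lower and 36.5% in either direction. Nop53, a large-subunit assembly factor, changed by -0.69, Nop56, of the RNA-modifying complex of the nucleolus, by -0.55, and Polr1a, the large subunit of RNA polymerase I, by -0.52. The 3 called higher were Eif6 at 0.85, Sbds at 0.49 and Pno1 at 0.45. At day 7, Eif6 and Bop1, a large-subunit assembly factor (0.57, adjusted p = 0.0371), were called higher and none was lower, at an unadjusted p under 0.05 and with DESeq2 as well. Of 78 mitochondrial ribosome genes, 3 were called higher (Mrpl20 and Mrpl43 among them) and 5 lower (Mrps35 and Mrps9 among them) at day 4, with a median of -0.02. At day 7, 7 were called higher, among them Mrps34, Mrpl36 and Mrpl34 at 0.62, 0.57 and 0.65, and Mrpl23 was called lower at -1.79, with a median of 0.22, where 4.70% of all genes were called higher and 3.95% lower. DESeq2 called 0 of these genes at day 4 in either direction, and at day 7 it called 1 higher and 1 lower. At day 4, 6 were higher and 11 lower at an unadjusted p under 0.05 with edgeR, a threshold for which no share of all genes is given here.

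**Figure D5:**
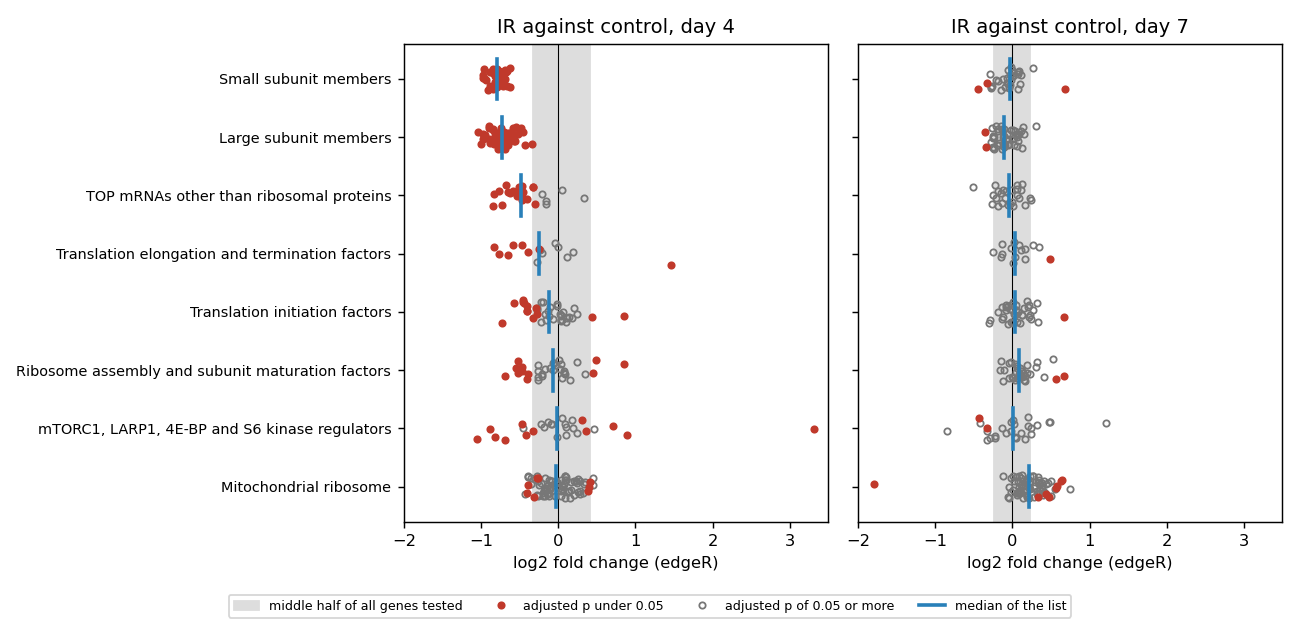
Log2 fold change (edgeR) of each gene in 8 gene lists, irradiated against control organoids, at day 4 (left) and day 7 (right); filled points have an adjusted p under 0.05, bars are list medians and the grey band spans the middle of all genes tested, between its quartiles. At day 4 the medians are -0.79 and -0.73 for the ribosomal protein genes of the small and large subunit and -0.48 for other TOP mRNAs, against -0.02 for the mitochondrial ribosome.

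Markers of cell state moved beside these groups at day 4. The summed level of 3 genes of dividing cells (Mki67, Top2a and Ccnb1) was 216 and 138 TPM in irradiated libraries, against 375 and 380 TPM in control libraries of day 4. The summed level of 4 enterocyte genes (Alpi, Apoa4, Fabp1 and Sis) was 2555 and 4449 TPM in irradiated libraries, against 799 and 681 TPM in control libraries, and that of 3 crypt base stem cell genes (Lgr5, Olfm4 and Ascl2) was 171 and 207 TPM, against 467 and 556 TPM. Lgr5 and Olfm4 make up nearly all of that last sum, and Ascl2 had 4.27 and 3.60 TPM in irradiated libraries, against 2.99 and 4.30 TPM in control libraries of day 4 (log2 fold change 0.25, adjusted p = 0.397). Replicate 2 of the irradiated organoids of day 4 had the highest enterocyte sum, the highest mitochondrial share and the lowest share of ribosomal protein transcripts of all 8 libraries. At day 7 the dividing-cell sum was 347 and 362 TPM in irradiated libraries, against 365 and 365 TPM in control libraries, and the enterocyte sum was 1218 and 1258 TPM, against 743 and 744 TPM. The stem cell sum was 588 and 571 TPM in irradiated libraries, against 977 and 959 TPM in control libraries of day 7, with Ascl2 at 12.3 and 12.8 TPM, against 8.09 and 7.78 TPM (0.51, adjusted p = 0.12). The part of these differences in the fall of the ribosomal protein genes was not tested. Without replicate 2 of the irradiated organoids of day 4 the median of the members was -0.67 at day 4.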

How the data were processed

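RNA was measured in 8 libraries of mouse small intestinal organoids, made from poly-A selected RNA with a directional kit, per the labels' protocols. The authors deposited expected counts and TPM per Ensembl gene, per the file headers. The submitters' processing notes list RSEM 1.3.3, STAR 2.7.3a, Trim Galore and FastQC, and name builds mm10 and GRCm39. Which build served what, the annotation and the strand setting are not stated there. Names came from GENCODE M21, which matched 52083 of 55416 IDs. Rounding the expected counts changed 11.4% of values. Genes passing filterByExpr (minimum count 10, minimum total 15), 14063 in all, entered 1 edgeR 4.0.16 fit (R 4.3.3, TMM scaling, robust quasi-likelihood F-tests) of 4 group means with 4 residual degrees of freedom. P-values are two-sided and adjusted by Benjamini-Hochberg over all genes tested. SEs are the log2 fold change over the root of F. Exact permutation of 2 against 2 libraries cannot go below p = 0.333, so summed shares got no test. The code of the fit was checked on simulated counts in which few genes changed. That check does not cover the scaling for data in which many genes change. Alternatives were DESeq2 1.42.0, limma 3.58.1 on log2(TPM + 1) and log2(TPM + 0.1) with TPM of at least 1 in 2 libraries, other scalings and filters, the replicate number as a block, and leaving out each library. Named members are the 5 largest called rises and falls of each comparison, the 3 lowest and highest relative to the member median and by level, and a set of fixed genes. Up to 4 called genes of each list are named, or 2 where none was called; some genes that this rule names are not reported here. The members and lists were chosen with earlier results of these data known.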

Additional observations from a re-analysis of the deposited data

Results flagged for a closer look

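The effect of irradiation differed between day 7 and day 4, by the test of the difference itself (edgeR interaction term, adjusted p under 0.05), in 69 of the 79 ribosomal protein genes. The values here are the log2 effect at day 7 minus that at day 4. Among small-subunit genes the difference was 1.63 for Rps27rt, 1.07 for Rps16, 0.82 for Rps3, 0.81 for Rps19, 0.77 for Rps14, 0.76 for Rps20, 0.75 for Rps6, 0.73 for Rps27a, 0.73 for Rpsa and 0.65 for Rps27. Among large-subunit genes it was 0.92 for Rpl32, 0.84 for Rpl12, 0.81 for Rpl3, 0.78 for Rpl22, 0.73 for Rpl27, 0.67 for Rpl11, 0.66 for Rpl23, 0.62 for Rpl5, 0.62 for Rpl41, 0.51 for Rpl10, 0.47 for Rpl19 and 0.44 for Rpl21. For the stalk proteins it was 0.70 for Rplp0, 0.62 for Rplp2 and 0.57 for Rplp1.

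Outside the members, the difference was 0.91 for Rack1, 0.59 for Rpl22l1 and 0.58 for Fau. Among translation factors it was 0.76 for Eef1g, 0.69 for Eef1b2, 0.54 for Eif4b, 0.51 for Eif2s2 and 0.49 for Eif3e. It was 0.45 for Naca, of the TOP list, and 1.53 for the repressor Eif4ebp1. Among assembly genes it was 0.72 for Nop53, 0.54 for Nop56 and 0.51 for Polr1a. In the mitochondrial ribosome it was 0.83 for Mrpl36, 0.76 for Mrps34 and -1.36 for Mrpl23. Of the 78 genes of that list, edgeR called 2.56% higher and 1.28% lower, against 4.60% and 5.51% of all genes. DESeq2 called 0 of them in either direction.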

How the results depend on the processing

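The day 4 fall kept its direction for every member named in the text in every alternative run. Counts that moved by over 1.5 times are given by setting. With counts summed with named copies, 0 members were called higher and 2 lower at day 7, and 0 lower between day 7 and day 4 in control organoids. With limma on log2(TPM + 0.1), 9 differed between the days, where 1.46% of all genes were called in that direction. In that fit 0 were lower at day 7 and 0 lower with time in control organoids. With log2(TPM + 1) the counts were 6 (against 1.28% of all genes), 0 and 0. With log2(TPM + 1) and no filter, 49 fell at day 4, where 2.11% of all genes did. There 0 differed between the days, 0 rose and 0 fell at day 7, and 0 fell with time in control organoids. With counts and no filter, 3 rose at day 7 and 2 fell with time in control organoids, against 4.51% and 2.46% of all genes. With only the groups compared, 7 rose and 36 fell at day 7, where 2448 of 13041 genes rose and 2284 fell, against 661 and 555 of 14063 in the fit of all groups. With the rule read by name alone (82 members), 2 rose at day 7 and 2 fell with time in control organoids. The mean share of the members was 2.85% in irradiated and 5.45% in control organoids of day 4, and 5.44% in irradiated and 5.39% in control organoids of day 7, as a share of expected counts. As a share of TPM without mitochondrial genes it was 9.13% and 16.2% at day 4 and 15.4% and 15.2% at day 7, irradiated before control. The log2 fold change of Rps6ka3 at day 7 turned to 0.14 with log2(TPM + 0.1) and to 0.13 with log2(TPM + 1), with or without the filter. The cause of these shifts was not tested.

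Without a single library, 77 to 79 members fell and 0 rose at day 4, 0 to 18 fell and 0 to 2 rose at day 7, 9 to 77 differed between the days, 69 to 79 rose with time in irradiated organoids, and 0 to 5 fell and 0 to 1 rose with time in control organoids. A lone library was assumed to vary like the other groups. The share of all genes called also moved with the library left out. It is not given here for these fits, so nothing is read from the ranges of these counts. Over the same fits the median log2 fold change of the members lay between -0.88 and -0.67 at day 4. At day 7 that median lay between -0.08 and 0.00. The TPM fits are not rescaled between libraries and moved the median of all genes by up to 0.38 on the log2 scale (day 7 against day 4 in irradiated organoids). Deviations of same-numbered libraries correlated between -0.035 and 0.058 over genes, so no shift shared by replicate number was seen. Whether libraries were paired by culture or mouse cannot be told from these values. With the replicate number as a block, 79 fell at day 4, 1 rose and 3 fell at day 7, and 65 differed between the days. Of all genes in that fit, 16.7% fell at day 4, and 4.75% rose and 4.1% fell at day 7. The difference between the days was called above 0 for 4.66% of them.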
